A study of Mus musculus with 9 samples.

Results

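The heat shock proteins and their DnaJ partners were examined as a set of 61 genes in the ventral hippocampus of mice. Members were chosen by symbol: those beginning with Hspa, Hspb, Hsp90, Hspd, Hspe, Hsph or Dnaj, without Hspb11 and without pseudogenes, with a mean of at least 1 CPM, the count scaled to the size of the library, over the 9 libraries. Of the 40213 genes in the deposited count files, 73 symbols matched the prefixes and 61 reached the limit. All 61 passed the filter on low counts and were among the 16106 genes tested. The 61 are 13 HSP70 and HSP110 genes, 3 HSP90 genes, 2 genes of the mitochondrial chaperonin, 3 small heat shock proteins, 4, 9 and 25 DnaJ proteins of classes A, B and C, and 2 genes, Hspbp1 and Hspbap1, whose products bind heat shock proteins and which share only the letters of the prefix.

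The 9 libraries were made from total RNA of male wild-type C57BL/6J mice, housed from 8 weeks of age, with 3 mice in each of 3 groups. SED mice were sedentary and untreated. SUS mice had been restrained for 2 hours a day over 14 days and are labelled susceptible to that stress, and SUS_LE mice had the same restraint and label and also ran on a treadmill at low intensity for 2 weeks. The scoring of susceptibility and the delay between the last session and dissection are not given in the sources used here. No group was exercised without stress, so exercise can be compared only on top of restraint.

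Heat shock proteins are chaperones, which hold unfolded proteins and help them fold, refold or be degraded. HSP70 proteins work through cycles of ATP hydrolysis that DnaJ proteins start and that nucleotide exchange factors such as HSP110 proteins and Hspbp1 complete, and HSP90 proteins finish the folding of receptors and kinases, among them the glucocorticoid receptor that answers stress hormones. The transcription factor HSF1 induces some of these genes in stressed cells, while others are made all the time, and neurons are known for a weak heat shock response. In synapses, HSP70 with the DnaJ protein auxilin strips clathrin from recycled vesicles.

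Library totals ran from 14172344 to 15582304 counts, and each library came from a separate mouse. Markers of hippocampal neurons were present in every library, among them Slc17a7 of excitatory neurons at 767 to 975 CPM and Prox1 of dentate granule cells at 74.3 to 118 CPM. Choroid plexus RNA differed most between libraries: all 20 markers were tested, none was at 0 in any library, and their summed level ran from 4882 to 7017 CPM in SED, from 310 to 9386 in SUS and from 409 to 2526 in SUS_LE. Its main transcript, Ttr, stood at 27.4 CPM in SUS 1, 83.2 in SUS_LE 1 and 59.6 in SUS_LE 3, against 1509 to 6085 in the other 6 libraries. Summed levels of 12 oligodendrocyte markers were 3216 to 3438 CPM in SED, 2708 to 3090 in SUS and 2786 to 3437 in SUS_LE. Those of 10 astrocyte markers were 5591 to 5876, 5189 to 5391 and 5687 to 5920 CPM. Both were lower in SUS than in SED without overlap, while summed microglial and neuronal markers overlapped. The part of glial RNA in the chaperone levels was not tested. No duplicated library was found.

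Levels differed widely within the set. Because longer transcripts give more counts, levels of different genes were compared as CPM per kilobase of transcript, as mean ± SD over the 9 mice. Hspa8, the constitutive cytosolic HSP70 and the one that uncoats clathrin, led with 843 ± 34.7. Hsp90ab1, the constitutive cytosolic HSP90, followed with 644 ± 24.7 and its stress-responsive relative Hsp90aa1 with 409 ± 17.2. Hsp90b1, the HSP90 of the endoplasmic reticulum, came next at 146 ± 10.3. In each neighbouring pair among these 4 genes the ranges over the 9 mice were apart. Below them the order was dense. Hspa9, the mitochondrial HSP70 (74.8 ± 3.02), Hsph1, an HSP110 protein (66.5 ± 3.63), Hspd1, the mitochondrial chaperonin (62.4 ± 2.62), Dnaja2, a cytosolic DnaJ protein (58.1 ± 2.87), and Hspa12a, an atypical HSP70 of neurons (56.6 ± 2.05), each overlapped in range with the next of these.

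Of the genes chosen as heat-inducible, Hsp90aa1 and Hsph1 are among the high genes above, while Hspa1a, Hspa1b, Hspb1 and Dnajb1 stood far lower. Levels per kilobase were 3.76 ± 0.391 for Hspa1a and 4.14 ± 0.673 for Hspa1b, the inducible HSP70 pair, 4.20 ± 0.728 for Hspb1, the small protein HSP27, and 8.96 ± 0.578 for Dnajb1, their usual DnaJ partner. The lowest member was Hspa12b, an endothelial HSP70, at 1.05 ± 0.175. In plain CPM the members nearest the limit of 1 were Hspa12b at 3.58 and Hspb1 at 3.89 inside it, and Dnajb3 at 0.669 and Dnajb13 at 0.540 outside it. The 12 genes outside include Hspb2, Hspb3, Hspb7 and Hspb9, so only Hspb1, Hspb6 and Hspb8 of the symbols with a Hspb number were members. Cryab, a small heat shock protein left out by its symbol, was more abundant than these. It stood at 63.6 ± 6.83 CPM in SED, 61.7 ± 12.9 in SUS and 56.5 ± 1.74 in SUS_LE (SD, n = 3). Dnajb8 and Dnajc5g had 0 counts in all 9 libraries, which allows up to 3 counts in a library.

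**Figure D1:**
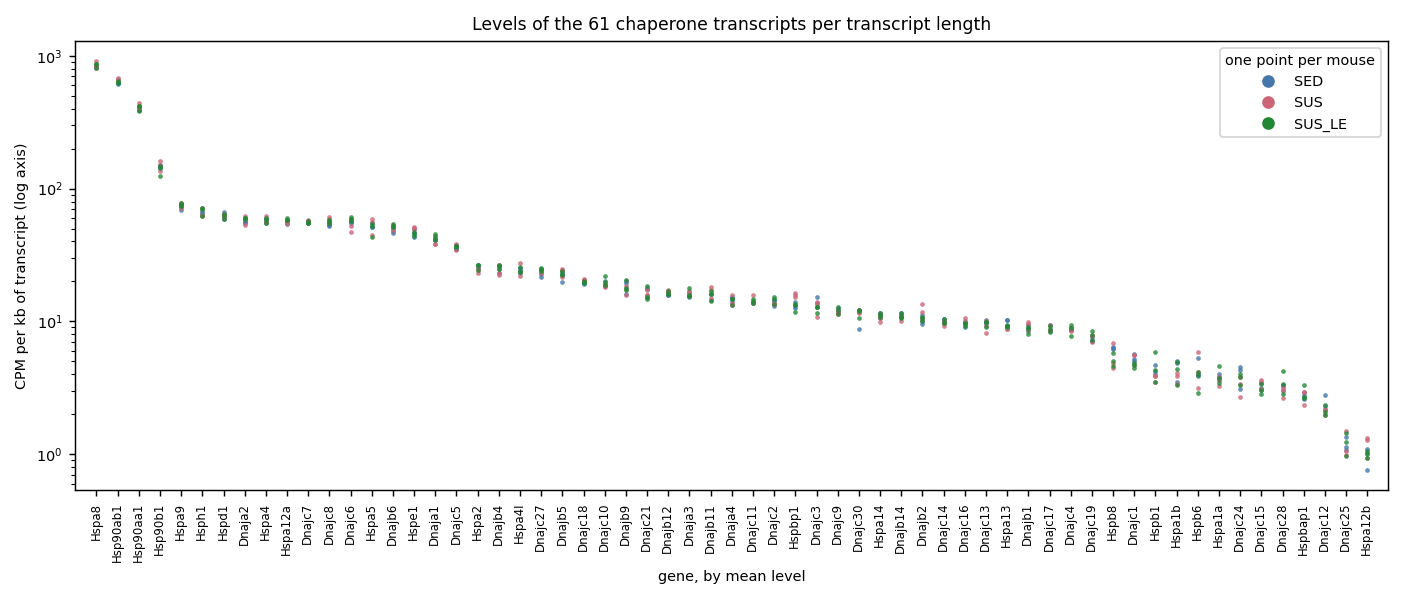
Level of each of the 61 genes in each mouse, as CPM per kilobase of the longest annotated transcript on a log axis, ordered by mean; each point is 1 mouse, coloured by group. Hspa8, Hsp90ab1, Hsp90aa1 and Hsp90b1 stand above the rest, and the stress-inducible Hspa1a, Hspa1b and Hspb1 lie near 4. In each comparison the 2 groups overlap for most genes.

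The summed level of the set was steady between mice. Over the 61 genes it ran only from 9580 CPM in SUS_LE 1 to 10464 in SUS 2. Much of it came from Hspa8, Hsp90ab1 and Hsp90aa1, with means of 2019, 1622 and 1342 CPM. Single genes varied to different degrees. The highest library exceeded the lowest by 1.04 times for Dnajc7, which hands proteins between HSP70 and HSP90, and by 1.12 times for Hsp90ab1, up to 2.01 times for Hspb6, a small heat shock protein of muscle and glia. The coefficient of variation between mice of the same group was 1.41% for Dnajc7 and 1.82% for Hsp90ab1 at the low end and 23.4% for Hspb6 at the high end. The standard error of a fold change (log2 scale) had a median of 0.07 over the members and 0.11 over all genes tested. These medians are not matched for level. Within the set the error in SUS against SED was 0.05 for the abundant Dnajc7 and 0.21 for the low-count Hspb6.

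**Figure D2:**
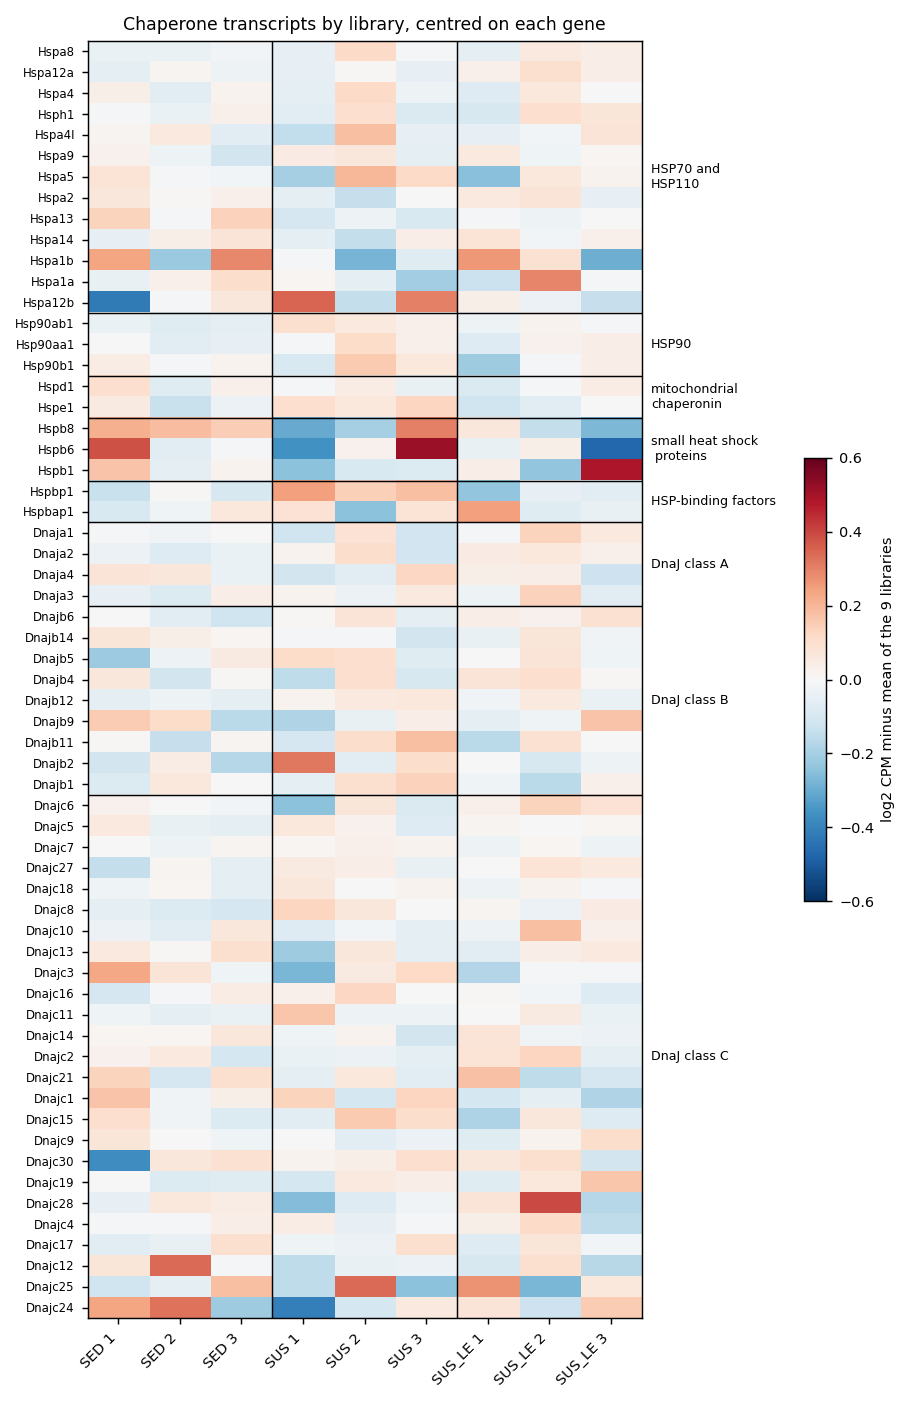
Log2 CPM of each gene in each of the 9 libraries minus that gene's mean over the libraries, with families separated by lines and groups by vertical lines; red is above and blue below the mean. Most cells are pale, and the strongest colours sit in low-count genes such as Hspb6, Hspb1, Hspa12b and Dnajc24 and in single libraries rather than whole groups.

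None of the 61 genes differed between any 2 groups by edgeR's quasi-likelihood test with Benjamini-Hochberg adjustment over all 16106 genes. At an adjusted p below 0.05 the test called 0% of all genes in SUS against SED, in SUS_LE against SUS and in SUS_LE against SED, so the members' 0 calls are no different from the background. The test for any difference among the 3 groups also called 0 of the 61 and 0% of all genes, and the smallest adjusted p of a member there was 0.187, for Hspbp1. At an unadjusted p below 0.05, SUS against SED had 4 members, 3 higher and 1 lower, beside 13.1% of all genes, 6.83% higher and 6.26% lower. SUS_LE against SUS had 3, with 1 higher and 2 lower, beside 13.7% (7.20% and 6.49%), and SUS_LE against SED had 2, with 1 in each direction, beside 6.64% (2.79% and 3.86%). The test for any difference had 2 beside 13.5%. With GC and length trends removed the counts were 6, 5 and 3 members, beside 8.56%, 8.49% and 7.14% of all genes. DESeq2, run beside edgeR, called 163, 180 and 16 genes in the 3 comparisons and 0 members. It had 3, 2 and 0 members at an unadjusted p below 0.05, and it gave no adjusted p to 25, 21 and 0 of them.

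The 2 comparisons with SUS share the SUS libraries, so values in SUS that lie high or low enter both with opposite sign. The median log2 fold change of the members was −0.0046 in SUS against SED, 0.0019 in SUS_LE against SUS and 0.017 in SUS_LE against SED, beside −0.00039, 0.0011 and 0.0085 over all genes. Values were above 0 for 29, 31 and 33 of the 61 members, beside 49.9%, 50.3% and 52.9% of all genes. The libraries of the 2 groups did not overlap for 10, 5 and 8 members, beside 18.3%, 17.0% and 16.2% of all genes. The 95% interval of the fold change lay within 1.5-fold in either direction for 58, 57 and 59 of the 61 members, beside 71.3%, 71.1% and 72.0% of all genes. All genes were not matched to the members by level, and low-count genes have wider intervals. For nearly all members, then, a change of more than 1.5-fold lay outside the interval, while smaller changes were not excluded by it.

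**Figure D3:**
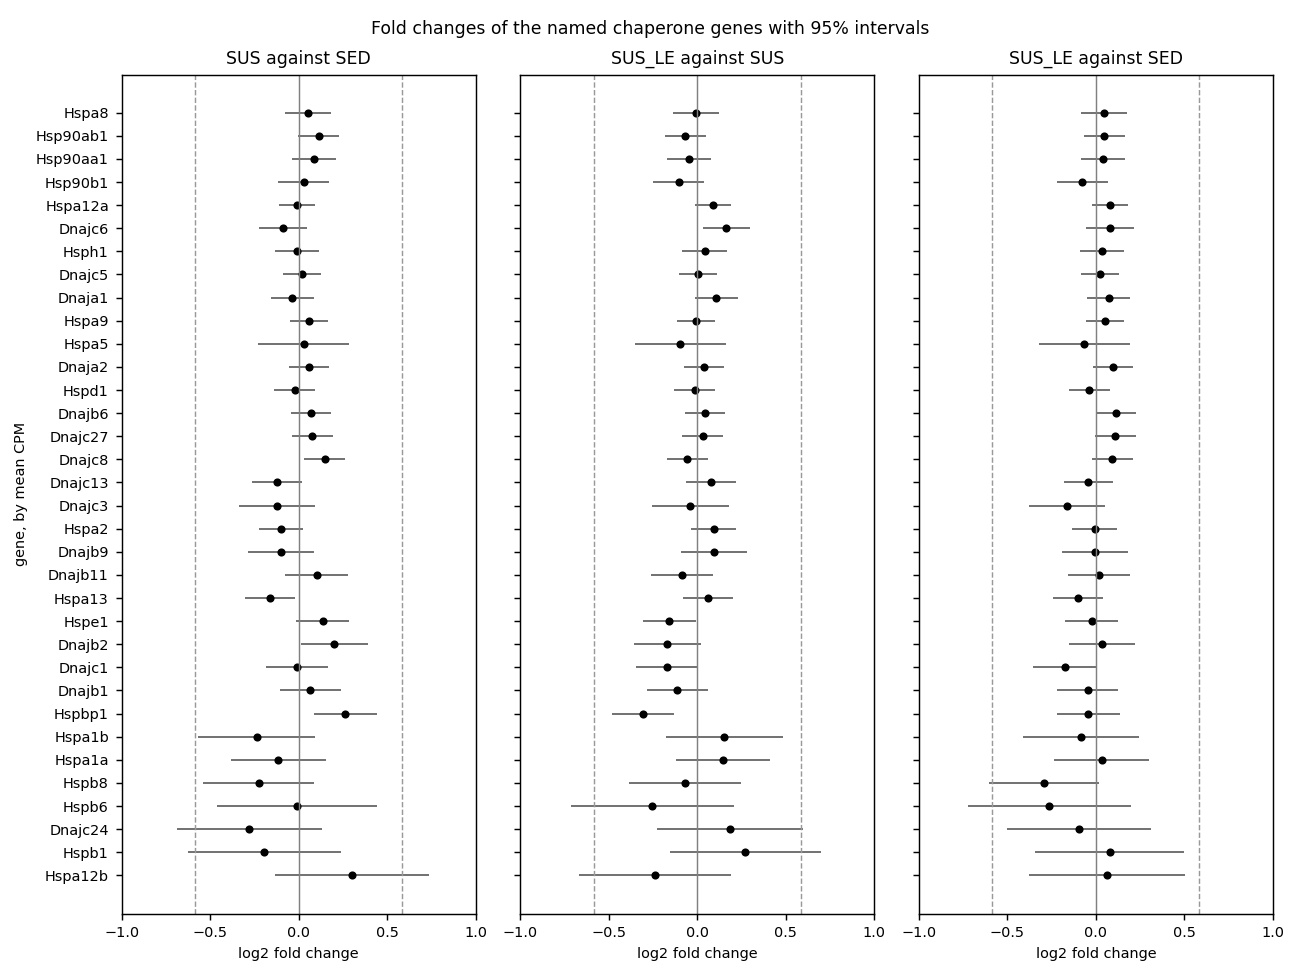
Log2 fold change (point) and 95% interval (line) of the 34 named genes in each comparison, ordered by mean CPM, with dashed lines at 1.5-fold. Points lie close to 0, the intervals are narrow for the abundant genes at the top, and those that cross a dashed line belong to low-count genes at the bottom.

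Among the abundant cytosolic chaperones, Hsp90ab1 showed the tightest groups. Its level was 1578, 1542 and 1563 CPM in SED 1 to 3, 1732, 1688 and 1653 in SUS 1 to 3, and 1587, 1643 and 1609 in SUS_LE 1 to 3. All 3 SUS mice stood above all others. The log2 fold change was 0.12 ± 0.06 (SE, n = 3 per group) in SUS against SED, with an edgeR adjusted p of 0.384, and −0.07 ± 0.06 in SUS_LE against SUS, with an edgeR adjusted p of 0.613. Hsp90aa1 stood at 1303 ± 31.4 CPM in SED, 1383 ± 59.2 in SUS and 1339 ± 58.9 in SUS_LE (SD, n = 3), and the groups overlapped. Hspa8 stood at 1964, 1965 and 1992 CPM in SED, 1953, 2186 and 1999 in SUS, and 1938, 2098 and 2074 in SUS_LE. Its log2 fold change of 0.05 (95% interval −0.08 to 0.18) in SUS against SED rested on SUS 2, the highest of the 9 libraries, and was −0.0018 without that library. In SUS_LE against SUS the fold change of Hspa8 was −0.0064 (95% interval −0.14 to 0.12).

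The inducible members Hspa1a, Hspa1b, Dnajb1 and Hspb1 were low in all 3 groups, unlike Hsp90aa1 and Hsph1. Hspa1a stood at 10.7, 11.4 and 12.0 CPM in SED, 11.2, 10.7 and 9.59 in SUS, and 10.1, 13.6 and 11.0 in SUS_LE. Hspa1b stood at 13.6, 9.81 and 14.1 CPM in SED, 11.4, 9.44 and 10.9 in SUS, and 13.8, 12.2 and 9.33 in SUS_LE. Groups overlapped for both genes. In SUS against SED the log2 fold change was −0.11 (95% interval −0.38 to 0.15) for Hspa1a and −0.24 (−0.57 to 0.09) for Hspa1b, and in SUS_LE against SUS it was 0.15 (−0.12 to 0.41) and 0.15 (−0.18 to 0.48). Single libraries moved these values. In SUS against SED, leaving out 1 library gave −0.16 (without SUS 1) to −0.055 (without SUS 3) for Hspa1a and −0.38 (without SED 2) to −0.14 (without SED 3) for Hspa1b. In SUS_LE against SUS it gave 0.012 (without SUS_LE 2) to 0.23 (without SUS_LE 1) for Hspa1a and 0.027 (without SUS_LE 1) to 0.29 (without SUS_LE 3) for Hspa1b. Dnajb1 stood at 26.7 ± 1.31 CPM in SED, 28.0 ± 1.94 in SUS and 25.9 ± 1.78 in SUS_LE. Hspb1 was lower in each SUS mouse (3.23, 3.61 and 3.63 CPM) than in each SED mouse (4.35, 3.71 and 3.92), but with so few counts the interval was wide (log2 fold change −0.19, 95% interval −0.63 to 0.24). In SUS_LE 3 it reached 5.45 CPM, the highest of the 9.

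Counts of the inducible pair carry a limit of identity, because Hspa1a and Hspa1b are near copies. Of the 31-base words in the Hspa1a transcript, 63.8% also occur in Hspa1b, so the split of counts between them depends on how the authors' pipeline shared reads. Their promoters are as alike: over the 250 bases before the start they differ at 3. The stretch below shows a pair of those bases, in capitals, from RefSeq on GRCm38.p6, at chr17:34972327-34972386 and chr17:34959409-34959468, each on the minus strand and upstream of the start.
Hspa1a: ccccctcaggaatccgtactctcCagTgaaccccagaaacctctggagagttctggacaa
Hspa1b: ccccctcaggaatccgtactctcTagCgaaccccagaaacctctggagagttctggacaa
Sharing was common in the set. Words were matched on either strand to all annotated transcripts, pseudogenes included. At least 10% of the 31-base words occurred in another gene for 23 of the 61 members, and 20 members shared none. The shares were 79.7% for Hspa8, 62.9% for Hsp90aa1, 59.1% for Hspe1, 58.4% for Hspb1 and 55.8% for Hspd1. For each of these members, the gene that shared most had no row under its symbol in the deposited counts. The strand setting of the counts is not given in the sources used here, and 12 members overlap exons of a gene on the other strand over at least 5% of their own, so reads of such neighbours cannot be told apart from theirs.

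Hspbp1, the nucleotide exchange factor that releases ADP from HSP70, had the smallest p in both comparisons with SUS. Its level was 20.2, 22.2 and 20.7 CPM in SED 1 to 3, 26.3, 24.4 and 25.1 in SUS 1 to 3, and 18.8, 21.4 and 21.1 in SUS_LE 1 to 3. The 3 SUS mice lay above the 6 others, and SED and SUS_LE overlapped. The log2 fold change was 0.27 ± 0.08 (SE) in SUS against SED, with an edgeR adjusted p of 0.200, −0.31 ± 0.08 in SUS_LE against SUS, with an edgeR adjusted p of 0.139, and −0.04 ± 0.09 in SUS_LE against SED. Neither difference passed the threshold, and with GC and length trends removed they were 0.17 and −0.19, with edgeR adjusted p of 0.607 and 0.549. Hspbap1, the other HSP-binding factor, stood at 4.66 ± 0.257 CPM in SED, 4.66 ± 0.609 in SUS and 4.89 ± 0.631 in SUS_LE.

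**Figure D4:**
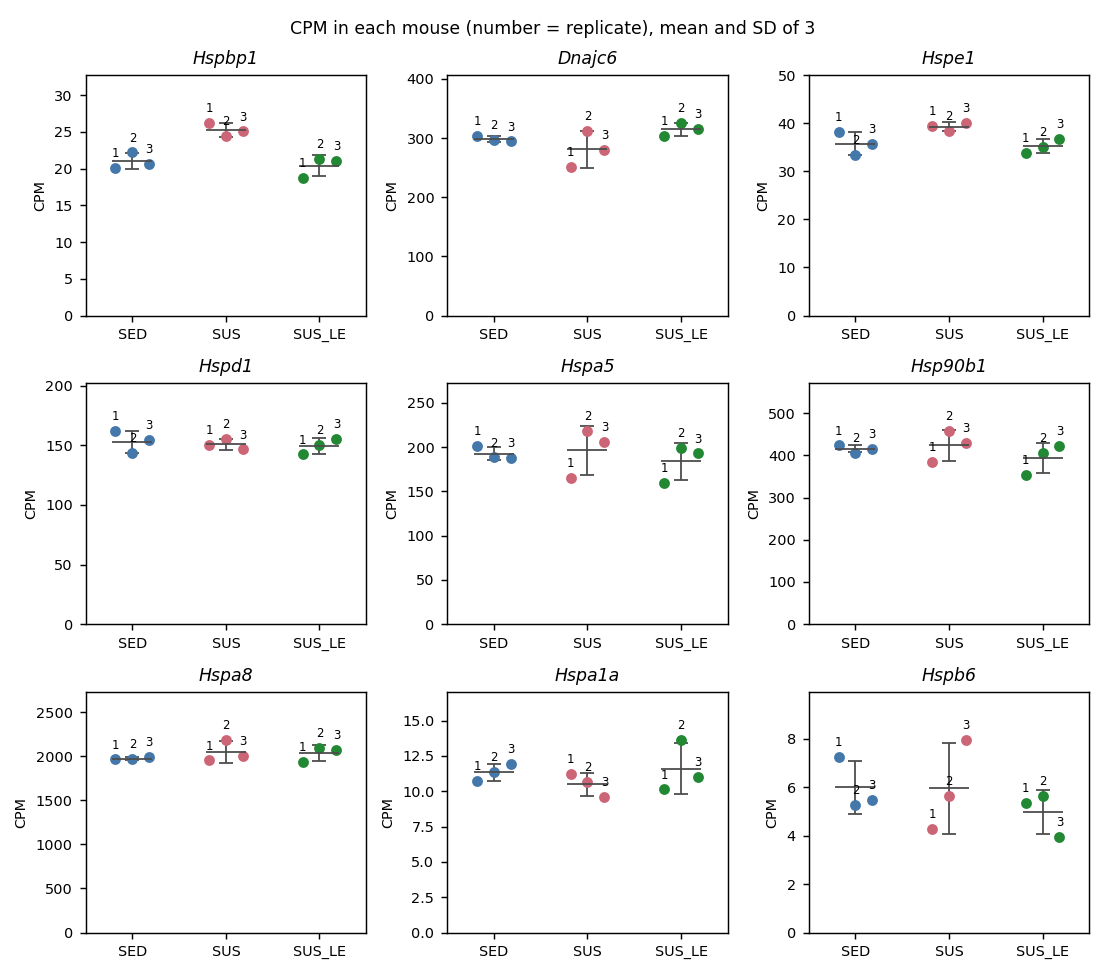
CPM of 9 named genes in each mouse (points, numbered by replicate) with the mean and SD of each group (bars), on axes that start at 0. Hspbp1 and Hspe1 are highest in SUS, Dnajc6 is lowest in SUS 1, Hspa5 and Hsp90b1 are lowest in SUS 1 and SUS_LE 1, and Hspa8, Hspa1a, Hspd1 and Hspb6 overlap between groups.

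Hspe1 and Hspd1 encode the co-chaperonin HSP10 and the chaperonin HSP60, which together form the folding chamber of the mitochondrial matrix. The genes point away from each other. RefSeq gives Hspd1 a start 216 bases from that of Hspe1 and a further start beyond it, so the annotated transcripts overlap on opposite strands. The heat shock element is the site that HSF1 binds, and was searched for as GAA, any 2 bases, TTC, any 2 bases and GAA, on both strands in the window from 250 bases before to 50 after each start. It is shown because it falls in a window of each gene: in the RefSeq window of Hspe1 on GRCm38.p6 (chr1:55088053-55088082, plus strand, −95 to −66 relative to the start) there are 2 overlapping matches, in capitals, which lie between the 2 nearer starts and also inside a GENCODE exon of Hspd1 that runs from the further start. Dnajb6, a class B protein that keeps aggregation-prone proteins soluble, has 1 match, at chr5:29735852-29735864 on the plus strand. The stretch shown, chr5:29735844-29735873, overlaps GENCODE exons of Dnajb6 and Gm5129.
Hspe1: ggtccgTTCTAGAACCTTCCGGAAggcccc
Dnajb6: agctccgaGAATCTTCCGGAAcgctagacc
A RefSeq window was found for 50 members, and 4 of them (Hspd1, Hspe1, Hsph1 and Dnajb6) held the motif, beside 0.662% of all 27025 genes with a window. Hspd1 and Hspe1 hold the same matches. The windows of Hspa1a and Hspa1b had no match to this exact pattern, which does not show that they lack a heat shock element. A match is a run of letters and does not show that a factor binds.

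Values of the chaperonin pair are set side by side here. Hspe1 stood at 38.1, 33.4 and 35.8 CPM in SED, 39.4, 38.4 and 40.1 in SUS, and 33.7, 35.1 and 36.8 in SUS_LE, so that all 3 SUS mice lay above the others, the nearest being SED 1. The log2 fold change of Hspe1 was 0.14 ± 0.07 in SUS against SED, with an edgeR adjusted p of 0.429, and −0.16 ± 0.07 in SUS_LE against SUS, with an edgeR adjusted p of 0.335. The first was 0.089 without SED 2 and 0.082 with GC and length trends removed. Hspd1 stood at 153 ± 9.24 CPM in SED, 151 ± 4.48 in SUS and 149 ± 6.64 in SUS_LE. Its log2 fold change was −0.02 (95% interval −0.14 to 0.09) in SUS against SED and −0.01 (−0.13 to 0.10) in SUS_LE against SUS. Whether the 2 genes differ in their fold change was not tested. Over the 9 mitochondrial chaperones tested, 7 had values above 0 in SUS against SED, 3 in SUS_LE against SUS and 6 in SUS_LE against SED, and the calls were 0 in each. Hspa9 stood at 222 ± 10.4 CPM in SED, 231 ± 10.3 in SUS and 231 ± 6.83 in SUS_LE.

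Of the DnaJ genes, Dnajc6 had the smallest p in SUS_LE against SUS. It encodes auxilin, the neuronal DnaJ protein that brings HSP70 to clathrin coats. Its level was 303, 298 and 294 CPM in SED 1 to 3, 251, 313 and 280 in SUS 1 to 3, and 304, 326 and 315 in SUS_LE 1 to 3. The SUS_LE mice lay above all SED mice and above SUS 1 and SUS 3, while SUS 2 lay among them. The log2 fold change in SUS_LE against SUS was 0.16 ± 0.06 (95% interval 0.03 to 0.30), with an edgeR adjusted p of 0.271. Without SUS 2 it was 0.24, with an edgeR adjusted p of 0.0491, and with the choroid plexus score as a covariate it was 0.23, with an edgeR adjusted p of 0.0349. Without SUS 1 it was 0.090, with an edgeR adjusted p of 0.547. The first 2 of these were the only settings tried in which a member passed the threshold. Dnajc6 was the 1 member called in each, beside 184 of all tested genes without SUS 2 and 429 with the covariate. Passing there was thus not particular to Dnajc6. In SUS against SED the log2 fold change of Dnajc6 was −0.09 (95% interval −0.22 to 0.05), and it was −0.011 without SUS 1, −0.17 without SUS 2 and −0.029 with the covariate.

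The rest of the DnaJ genes with small p values differed by little. Dnajc8, a nuclear protein bound to splicing factors, stood at 75.9, 74.5 and 73.6 CPM in SED, 86.3, 82.9 and 79.2 in SUS, and 79.9, 77.1 and 81.8 in SUS_LE. All SUS mice lay above all SED mice (log2 fold change 0.15 ± 0.06, edgeR adjusted p 0.260). Dnajb2, a neuronal DnaJ protein that passes clients to the proteasome, stood at 30.8, 34.3 and 29.5 CPM in SED, 41.4, 31.8 and 35.8 in SUS, and 33.3, 31.1 and 32.5 in SUS_LE. SUS 1 was its highest library, and SUS 2 lay within the SED range (log2 fold change 0.20 ± 0.09 in SUS against SED, edgeR adjusted p 0.339). Without SUS 1 the fold change of Dnajb2 was 0.098, and with the choroid plexus covariate 0.13. Dnajc13, which acts on endosomes, stood at 79.4 ± 2.42 CPM in SED, 73.1 ± 7.16 in SUS and 77.1 ± 3.52 in SUS_LE. Dnaja1, an abundant cytosolic partner of HSP70, stood at 231 ± 1.90 CPM in SED, 225 ± 18.8 in SUS and 243 ± 12.5 in SUS_LE. Dnajc5, the cysteine string protein that protects presynaptic terminals, stood at 237 ± 10.6, 240 ± 12.1 and 241 ± 1.52 CPM.

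SUS_LE against SED had the fewest genes at an unadjusted p below 0.05. Dnajb6 stood at 147, 141 and 135 CPM in SED and 152, 150 and 157 in SUS_LE, with no overlap (log2 fold change 0.11 ± 0.05, edgeR adjusted p 0.742). Dnajc1, a DnaJ protein of the endoplasmic reticulum membrane, stood at 31.4, 27.4 and 28.5 CPM in SED and 25.9, 26.8 and 24.6 in SUS_LE (log2 fold change −0.18 ± 0.08, edgeR adjusted p 0.747). Its SUS values were 30.5, 25.9 and 30.4 CPM. Dnaja2 stood at 163 ± 2.73 CPM in SED, 170 ± 13.0 in SUS and 175 ± 2.07 in SUS_LE, and Dnajc27, a small GTPase with a J domain, at 108 ± 5.94, 114 ± 4.03 and 116 ± 3.45. For Dnaja2 the SED and SUS_LE mice did not overlap, and for Dnajc27 they did.

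The HSP70 and HSP110 genes showed no common direction: of the 13, the stress-inducible pair included, 5 had values above 0 in SUS against SED, 8 in SUS_LE against SUS and 7 in SUS_LE against SED. Hspa13, a microsomal HSP70 without a substrate-binding domain, stood at 43.4, 39.2 and 43.6 CPM in SED, 36.9, 38.8 and 37.2 in SUS, and 39.4, 38.7 and 39.6 in SUS_LE. Its SUS mice lay below its SED mice (log2 fold change −0.16 ± 0.07, edgeR adjusted p 0.312). Hspa2, an HSP70 of germ cells that the brain also expresses, stood at 67.1, 64.3 and 65.4 CPM in SED, 61.7, 58.2 and 63.8 in SUS, and 66.6, 67.6 and 61.9 in SUS_LE (log2 fold change −0.10 ± 0.06 in SUS against SED). Hspa12a stood at 311, 328 and 317 CPM in SED, 313, 326 and 313 in SUS, and 332, 347 and 334 in SUS_LE. All SUS_LE mice were above the other 6 (log2 fold change 0.09 ± 0.05 in SUS_LE against SUS, edgeR adjusted p 0.443). Hsph1, the inducible HSP110, stood at 251 ± 6.10, 250 ± 18.3 and 257 ± 18.5 CPM in the 3 groups.

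Among chaperones of the endoplasmic reticulum, Hspa5, Hsp90b1 and Dnajc3 varied by library rather than by group. Dnajc1, described above, differed from them: at 30.5 CPM, SUS 1 lay within its SED range, and its SED and SUS_LE mice did not overlap. Hspa5, known as BiP, is the HSP70 of that compartment and the classic target of the unfolded protein response, and Dnajb9, Dnajb11 and Dnajc3 are its DnaJ partners. Hspa5 stood at 201, 188 and 188 CPM in SED, 166, 218 and 206 in SUS, and 160, 199 and 193 in SUS_LE. Hsp90b1 stood at 423, 407 and 416 CPM in SED, 385, 457 and 429 in SUS, and 354, 406 and 422 in SUS_LE. Dnajc3 stood at 78.4, 70.4 and 65.5 CPM in SED, 55.1, 69.2 and 72.4 in SUS, and 58.9, 66.2 and 66.3 in SUS_LE. SUS 1 and SUS_LE 1 were the lowest libraries for all 3 genes. Ttr, the choroid plexus transcript, was also low there (27.4 and 83.2 CPM) but was as low in SUS_LE 3 (59.6 CPM), where Hspa5 stood at 193 CPM. The part of choroid plexus RNA in these levels was not tested, and in tissue RNA fewer cells of a type and less RNA per cell cannot be told apart.

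Between groups the log2 fold change of Hspa5 was 0.03 (95% interval −0.23 to 0.29) in SUS against SED and −0.10 (−0.35 to 0.16) in SUS_LE against SUS. With the choroid plexus score as a covariate these were 0.13 and 0.025. Leaving out 1 library gave −0.055 (without SUS 2) to 0.14 (without SUS 1) and −0.20 (without SUS 1) to −0.0040 (without SUS_LE 1). For Hsp90b1 the fold change was 0.03 (95% interval −0.12 to 0.17) and −0.10 (−0.25 to 0.04), and with the covariate 0.077 and −0.046. Leaving out 1 library gave −0.033 (without SUS 2) to 0.093 (without SUS 1) and −0.17 (without SUS 1) to −0.033 (without SUS_LE 1). Dnajb9 stood at 45.6 ± 5.19 CPM in SED, 42.6 ± 3.26 in SUS and 45.4 ± 4.02 in SUS_LE, and Dnajb11 at 39.1 ± 2.36, 42.0 ± 4.14 and 39.6 ± 3.51. Of the 9 chaperones listed for this compartment, 4 had values above 0 in SUS against SED and 3 in each of the other comparisons.

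The promoters of Hspa5, Hsp90b1 and Dnajc3 are shown because these 3 genes hold the same motif. Its part in their levels was not tested. Not every gene listed for the unfolded protein response was low in both SUS 1 and SUS_LE 1. Calr stood at 381 to 393 CPM in SED, 419 in SUS 1 and 324 in SUS_LE 1. Herpud1 stood at 25.5 to 26.5 CPM in SED, 22.6 in SUS 1 and 31.4 in SUS_LE 1. An element through which the unfolded protein response acts was searched for as CCAAT, any 9 bases and CCACG. The search covered both strands of the same windows, and matches are in capitals. From RefSeq on GRCm38.p6, the Hspa5 stretch is chr2:34772020-34772049 on the plus strand and overlaps a GENCODE exon of Hspa5. The stretches of Hsp90b1 (chr10:86705525-86705674, minus strand) and Dnajc3 (chr14:118937792-118937871, plus strand) overlap no GENCODE exon.
Hspa5: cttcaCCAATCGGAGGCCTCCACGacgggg
Hsp90b1: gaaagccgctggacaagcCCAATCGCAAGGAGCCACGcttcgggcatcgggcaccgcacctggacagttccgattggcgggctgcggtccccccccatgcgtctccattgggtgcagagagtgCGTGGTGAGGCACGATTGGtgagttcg
Dnajc3: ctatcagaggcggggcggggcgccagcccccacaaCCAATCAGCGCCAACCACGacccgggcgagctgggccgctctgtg
Of the 50 members with a window these 3 held the motif, beside 0.137% of all genes with a window, and Hsp90b1 held it on each strand, the second as its reverse complement.

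The small heat shock proteins varied between mice of a group. Hspb8, which works with Bag3 to send damaged proteins to autophagy, stood at 11.7, 11.4 and 11.2 CPM in SED, 8.11, 8.74 and 12.4 in SUS, and 10.5, 9.09 and 8.31 in SUS_LE. All SUS_LE mice lay below all SED mice, while SUS 3 was the highest library (log2 fold change −0.29 ± 0.15 in SUS_LE against SED, edgeR adjusted p 0.766, and −0.054 with the choroid plexus covariate). Hspb6 stood at 7.23, 5.26 and 5.47 CPM in SED, 4.26, 5.62 and 7.95 in SUS, and 5.34, 5.65 and 3.95 in SUS_LE, with the highest value again in SUS 3 and the lowest in SUS_LE 3. Ttr was highest in SUS 3 (6085 CPM) and low in SUS 1, SUS_LE 1 and SUS_LE 3. In SUS_LE 1, where Ttr stood at 83.2 CPM, Hspb6 (5.34 CPM) lay within its SED range. Hspb8 stood there at 10.5 CPM, the highest of the SUS_LE mice. The part of choroid plexus or vessel RNA in Hspb6 and Hspb8 was not tested. Summed markers of endothelium and mural cells, 14 of 14 tested, ran from 417 to 475 CPM in SED, from 314 to 457 in SUS and from 444 to 505 in SUS_LE.

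Partners outside the naming rule were followed in lists, each with 0 members past the threshold by edgeR in every comparison. Of 37 cochaperones and regulators, 24 had values above 0 in SUS against SED, 16 in SUS_LE against SUS and 20 in SUS_LE against SED, and 8, 13 and 2 had an unadjusted p below 0.05, beside 13.1%, 13.7% and 6.64% of all genes. The smallest p belonged to Sgta, which guides tail-anchored proteins and binds HSP70. Sgta stood at 67.6, 73.3 and 69.8 CPM in SED, 89.5, 81.2 and 78.1 in SUS, and 71.5, 72.0 and 68.1 in SUS_LE. Its log2 fold change was 0.24 ± 0.06 in SUS against SED (edgeR adjusted p 0.145) and −0.23 ± 0.06 in SUS_LE against SUS (edgeR adjusted p 0.131), so that, as with Hspbp1, the SUS mice stood above the rest. In SUS_LE against SED the smallest p was that of Hsbp1, a small protein that binds HSF1 (log2 fold change 0.17 ± 0.05, edgeR adjusted p 0.493).

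Of 20 genes listed as the HSF1-induced core, 14 of the set among them, values above 0 numbered 10, 7 and 10 in the 3 comparisons, with medians of 0.02, −0.06 and 0.0086 on the log2 scale. The cytosolic chaperonin TRiC and prefoldin, which fold actin and tubulin, had 13 of 14 genes above 0 in SUS against SED, with a median of only 0.03, and 8 and 9 of 14 in the other comparisons. Of 19 genes of the unfolded protein response tested, 9, 8 and 7 had values above 0. Herpud1, a membrane protein of the degradation machinery of the endoplasmic reticulum, had the smallest p of these in both comparisons with SUS_LE. It stood at 25.5, 26.5 and 26.1 CPM in SED, 22.6, 28.4 and 24.9 in SUS, and 31.4, 31.6 and 30.1 in SUS_LE. All SUS_LE mice lay above the other 6. The log2 fold change was 0.29 ± 0.08 in SUS_LE against SUS (edgeR adjusted p 0.145) and 0.25 ± 0.08 in SUS_LE against SED (edgeR adjusted p 0.570). In SUS against SED the smallest p of the list was that of Calr (log2 fold change 0.15 ± 0.07, edgeR adjusted p 0.367). For Calr the value in SUS_LE against SUS was −0.21 ± 0.07 (edgeR adjusted p 0.204).

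Fold changes in both comparisons with SUS followed the GC content of transcripts, in the members as over all genes. Across 14697 genes with an annotated transcript, Spearman's rho between fold change and GC content was 0.371 in SUS against SED, −0.396 in SUS_LE against SUS and −0.032 in SUS_LE against SED, and across the 61 members it was 0.276, −0.286 and 0.023. Genes share the same 9 libraries and are not independent replicates. The 24 members of at least 50% GC had a median log2 fold change of 0.07 in SUS against SED and −0.03 in SUS_LE against SUS, and the 37 below had −0.02 and 0.04, beside 0.06, −0.06, −0.06 and 0.06 for all genes so divided. Hspbp1, at 59.9% GC, and Dnajb2, at 57.3%, lie at the rich end, and Hspa13, at 39.8%, at the poor end. With GC and length trends removed, the log2 fold change in SUS against SED was 0.17 for Hspbp1, 0.14 for Dnajb2 and −0.051 for Hspa13, and the median was 0.05 over the members and 0.02 over all genes.

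**Figure D5:**
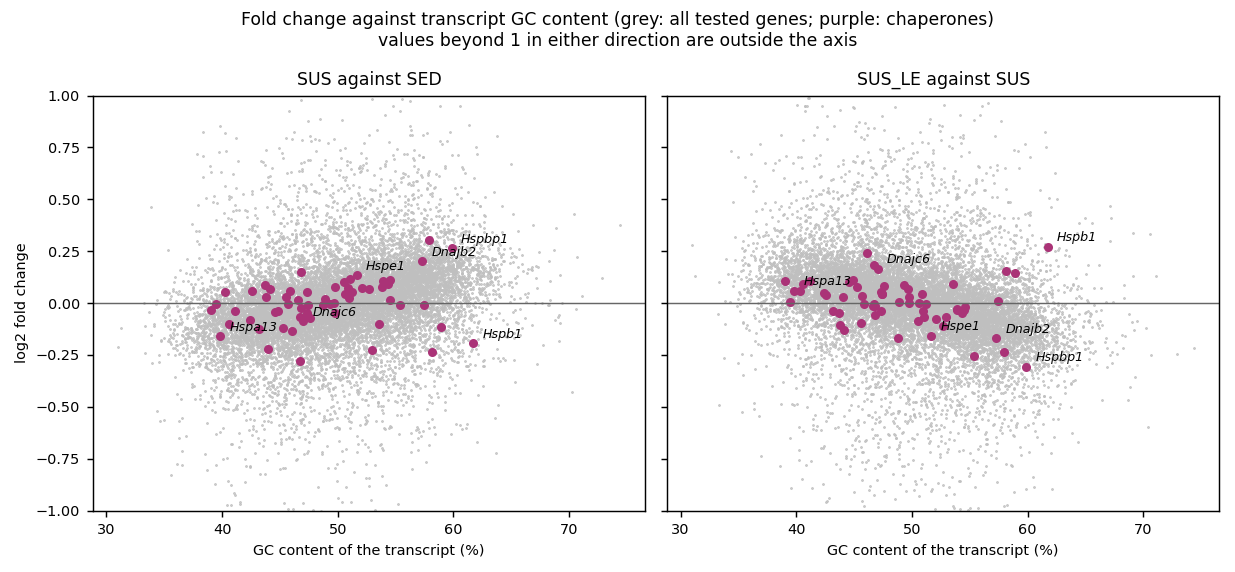
Log2 fold change against the GC content of the longest annotated transcript for all genes tested (grey) and the 61 chaperone genes (purple), in SUS against SED and in SUS_LE against SUS; values beyond 1 in either direction are outside the axis. The cloud tilts up in the first comparison (rho 0.371) and down in the second (rho −0.396), and Hspbp1 and Dnajb2 sit at its GC-rich end.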

How the data were processed

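The deposited files hold whole-number counts per gene symbol, 1 file per library, not normalized by the authors. Per the submitters' processing notes they used fastp, STAR, Salmon and GRCm39, with no versions given. The kit was CORALL RNA-seq V2 and the batch number 1 throughout, per the labels. Annotation, strand setting and rounding are not given in the sources used here. Exercised libraries keep the labels' numbers 1 to 3, not those of the file headers.

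Counts were analysed in R 4.3.3 with edgeR 4.0.16: the expression filter by group left 16106 genes with 99.9% of counts, libraries were scaled by TMM, and a robust quasi-likelihood model with group as its only term was fitted to all 9 libraries. The Benjamini-Hochberg adjustment ran over all tested genes (threshold 0.05). CPM are TMM-scaled, except for membership. Intervals of 95% use the model's SE and degrees of freedom. DESeq2 1.42.0 was an alternative. The code was tested on simulated data. An exact permutation test of 3 against 3 mice cannot give a p below 0.1.

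Members, lists and named genes were chosen with earlier results of these data known. Named genes were those fixed by role and the 3 members with the smallest p in each direction of each comparison. The highest, lowest and limiting members by CPM were also named. Outside the set, the smallest p of a list and, for its level, Cryab were named. Transcript lengths, GC content and shared 31-base words came from GENCODE M21 (GRCm38), which held the symbols of all 61 members and 91.3% of tested genes. Promoters came from RefSeq (GRCm38.p6).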

Additional observations from a re-analysis of the deposited data

How the results depend on the processing

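Alternatives were DESeq2 size factors in edgeR, DESeq2, no filter on low counts, a replicate block, a covariate for the choroid plexus score, each library left out in turn and, chosen after seeing the data, leaving out the 3 libraries lowest in Ttr and removing GC and length trends by offsets. Members past the threshold stayed at 0 except in SUS_LE against SUS, with 1 (Dnajc6) under the choroid plexus covariate and a range of 0 to 1 when leaving out a library (SUS 2). Genes past the threshold, 0 in each comparison by edgeR, numbered 163, 180 and 16 by DESeq2 and 297, 430 and 218 without the filter. They were 14, 20 and 16 without the 3 libraries lowest in Ttr, and 429 and 2 in SUS_LE against SUS and against SED with the choroid plexus covariate. Leaving out a library gave 0 to 74 (without SUS 3), 0 to 184 (without SUS 2) and 0 to 69 (without SUS 1). With the replicate block they numbered 1, 1 and 0, with 0 members. The numbers do not pair mice: deviations of same-numbered mice correlated at −0.123 to 0.180.

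The member median in SUS against SED was 0.046 (log2) with GC and length trends removed, beside 0.016 over all genes. No fold change whose sign turned was past the threshold, and all but those of Hspb1 (0.27) and Dnajc3 (−0.16) were within 0.1 of 0. In SUS against SED Hspd1 was 0.011 with trends removed. In SUS_LE against SUS Hspa8 was 0.021 with the covariate, 0.0075 without the 3 libraries and 0.0060 with trends removed, Hspa5 was 0.025 with the covariate, and Hspb1 was −0.15 without the 3 libraries. In SUS_LE against SED Dnajc3 was 0.057 with the covariate and Hspbp1 was 0.025 without the 3 libraries. When leaving out a library the ranges in SUS against SED were −0.033 to 0.093 for Hsp90b1, −0.055 to 0.14 for Hspa5, −0.0018 to 0.084 for Hspa8 and −0.068 to 0.018 for Hspd1. In SUS_LE against SUS they were −0.038 to 0.040 for Hspa8 and −0.043 to 0.020 for Hspd1, and in SUS_LE against SED −0.076 to 0.016 for Hspbp1. The causes were not tested. Low counts limited Hspb1, Hspb6, Hspb8, Hspa12b and Dnajc24, whose intervals reached beyond 1.5-fold in at least 1 comparison.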
